A study of Homo sapiens with 9 samples.

Results

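The keratin genes were the 55 of 62666 genes in the deposited gene tables whose symbol is KRT followed by a number, with or without a letter A to C, which leaves out keratin pseudogenes and keratin-associated proteins. They were read in 3 related human breast epithelial cell lines, each sequenced as 3 libraries of polyadenylated RNA, 9 in all. MCF10A does not form tumours, MCF10AT1 is MCF10A carrying an introduced activated HRAS gene, and MCF10Ca1a forms tumours and belongs to the same lineage, and the series was made to follow expression along breast cancer progression. Each stage is represented by 1 line, so the stage and the line cannot be told apart. All 3 lines grew in DMEM/F12 medium with sodium bicarbonate, insulin, L-glutamine, epidermal growth factor, hydrocortisone and cholera toxin. Horse serum was at 5% for MCF10A and MCF10Ca1a and at 2.5% for MCF10AT1, so serum and line cannot be told apart wherever MCF10AT1 is compared. Nothing in the labels says that the replicates were separate cultures, so the p-values measure the spread between these libraries, which may be technical.

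Keratins are the intermediate filament proteins of epithelial cells. An acidic type I keratin pairs with a basic type II keratin, the pairs assemble into filaments, and the filaments anchor at desmosomes and hemidesmosomes. In the mammary gland, cells of the outer basal layer make KRT5, KRT14 and KRT17, and cells of the inner luminal layer make KRT7, KRT8, KRT18 and KRT19. KRT15, a keratin of the basal layer of stratified epithelia, was counted as basal here, and its layer in the breast was not tested. Other keratins mark activated or wounded epidermis, the upper layers of stratified epithelia, or the hair shaft and its root sheath. By these known roles the 55 genes were divided into 4 basal, 5 luminal, 4 activation, 13 suprabasal and 26 hair and root sheath keratins, and 3 others. By type, 29 are type I and 26 are type II.

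Libraries held 62898823 to 69508842 estimated counts in MCF10A and MCF10AT1 and 32930503 to 35243012 in MCF10Ca1a. The epithelial label held in each line: all 5 epithelial markers reached a mean of 1 TPM (a share of all transcripts, adjusted for gene length), with summed levels of 174 to 219 TPM in MCF10A, 389 to 442 TPM in MCF10AT1 and 1000 to 1031 TPM in MCF10Ca1a. Of 6 basal markers 5 reached 1 TPM in every line (all but MYLK), with sums of 631 to 950, 770 to 781 and 1529 to 1577 TPM. LAMB3 was at 227 to 362, 192 to 193 and 869 to 901 TPM and ITGB4 at 138 to 206, 205 to 220 and 450 to 469 TPM. ITGA6 (234 to 338, 336 to 355 and 170 to 175 TPM) and ACTA2 (8.93 to 14.1, 5.11 to 5.8 and 2.27 to 3.18 TPM) were lowest in MCF10Ca1a. Of 6 luminal markers 3, 3 and 4 did, with sums of 41.8 to 56.9, 68 to 71.2 and 51.7 to 54.8 TPM. MUC1 was at 31.5 to 43.8, 51.6 to 53.6 and 1.12 to 1.71 TPM and FOXA1 at 3.65 to 4.5, 9.47 to 10.4 and 40.3 to 42.5 TPM, with PGR at 0.00907 TPM or less and ELF5 at 0.0108 TPM or less. Fibroblast markers summed to 6.43 to 7.21, 27.6 to 31.5 (nearly all DCN) and 1.92 to 2.29 TPM, with COL1A2, COL3A1 and LUM at 0.0693 TPM or less in every library. Endothelial markers summed to 0.554 to 0.746, 0.789 to 1.22 and 15.6 to 20.8 TPM, nearly all of it PECAM1, with VWF and CDH5 at 0.00806 TPM or less. The leukocyte marker CD3E was at 0 and PTPRC at 0.0377 TPM or less in every library, while CD68 ran from 2.65 to 33 TPM.

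Several keratin genes are near-copies of each other, and stretches of their coding sequence are shown because only the bases that differ can assign a read to one gene or the other. The deposited values carry no measure of how sure each assignment was. In the GENCODE 29 annotation of GRCh38, KRT6A and KRT6B differ at 43 of 1695 aligned coding bases (97.5% identity), KRT6A and KRT6C at 35 (97.9%) and KRT6B and KRT6C at 26 (98.5%). Their longest identical runs are 269, 349 and 269 bases. The 60 coding bases below, counted from the A of the start codon as positions 663 to 722 and written 5′ to 3′, hold 9 columns where the 3 genes are not alike, in capitals.
KRT6A: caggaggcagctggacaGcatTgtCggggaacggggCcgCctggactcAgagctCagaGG
KRT6B: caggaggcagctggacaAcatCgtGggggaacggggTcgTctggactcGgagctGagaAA
KRT6C: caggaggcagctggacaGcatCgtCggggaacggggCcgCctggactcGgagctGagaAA

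The hair keratins KRT81 and KRT86 differ at 103 of 1455 aligned coding bases (92.9% identity) and share an identical run of 605 bases. A stretch of 60 coding bases towards the end of both, positions 1286 to 1345 in each, separates them at 22 columns, in capitals.
KRT81: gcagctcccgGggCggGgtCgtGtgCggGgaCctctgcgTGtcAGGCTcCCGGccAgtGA
KRT86: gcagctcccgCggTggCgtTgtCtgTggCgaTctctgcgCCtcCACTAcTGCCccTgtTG

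KRT14 and KRT16, type I keratins of basal and of activated epidermis, differ at 172 of 1395 aligned coding bases (87.7% identity), with a longest identical run of 158 bases. Their stretch of 60 coding bases with 22 differing columns, again in capitals, runs over positions 1261 to 1320 of KRT14 and 1267 to 1326 of KRT16.
KRT14: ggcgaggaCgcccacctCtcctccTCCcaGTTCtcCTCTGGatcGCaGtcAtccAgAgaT
KRT16: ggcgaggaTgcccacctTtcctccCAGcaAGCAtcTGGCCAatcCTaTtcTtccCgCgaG

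Cut into overlapping words of 31 bases, the transcript sequence of KRT6A had 47.3% of its words in no other gene, KRT6B 41.7%, KRT6C 38.3%, KRT81 46.8%, KRT86 54.5%, KRT14 53.9%, KRT16 60.5% and KRT17 62.3%. KRT8 and KRT18, which have many processed pseudogenes, had 48.9% and 39.6%. KRT15, KRT7, KRT5 and KRT23 had 98.3%, 95.1%, 92.8% and 100.0%. The summed counts of the 51 KRT8 pseudogenes were equal to 1.99% to 3.99% of the KRT8 counts over the 9 libraries, and those of the 68 KRT18 pseudogenes to 0.269% to 0.396% of the KRT18 counts. The 7 KRT16 pseudogenes had counts equal to at most 2.2% of those of KRT16.

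**Figure D1:**
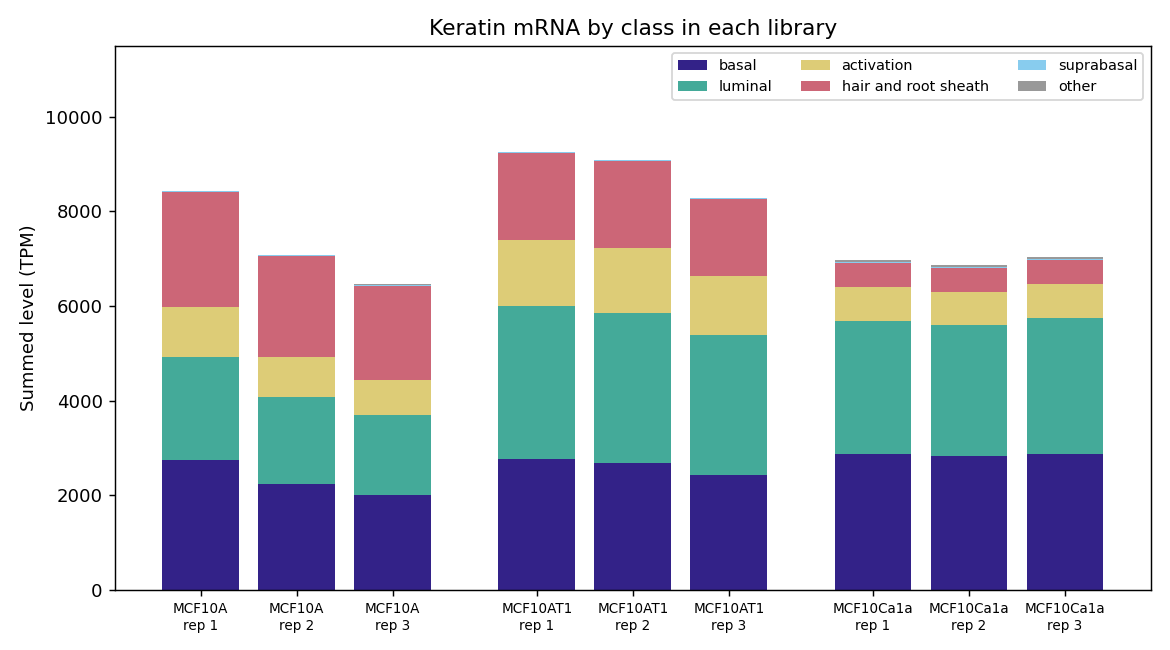
Summed level of all keratin genes in each of the 9 libraries (TPM), stacked by keratin class, with 3 libraries per line. The hair and root sheath block narrows from a mean of 2180 TPM in MCF10A to 1769 in MCF10AT1 and 506 in MCF10Ca1a, while the basal block differs by less.

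Keratins as a whole took up under 1% of all transcripts in each library, most in MCF10AT1, and the makeup of that share differed between lines. All 55 genes together summed to 8428, 7077 and 6458 TPM in the MCF10A libraries, 9258, 9088 and 8288 TPM in MCF10AT1 and 6972, 6871 and 7040 TPM in MCF10Ca1a. The means were 7321 ± 1008, 8878 ± 518 and 6961 ± 85 TPM (SD, n = 3), or 0.732%, 0.888% and 0.696% of all transcripts. MCF10A replicate 1 was the highest of its line and lay within the range of MCF10AT1, the MCF10Ca1a libraries lay within the range of MCF10A, and MCF10AT1 and MCF10Ca1a did not overlap. The sums were also taken without a chosen list of 10 keratins with a close relative (KRT6A, KRT6B, KRT6C, KRT14, KRT16, KRT17, KRT33A, KRT33B, KRT81 and KRT86). The means were then 3381, 4997 and 3923 TPM, and all MCF10AT1 libraries (4679 to 5225 TPM) were above all MCF10A libraries (2945 to 3931 TPM). The list follows no single limit of likeness: KRT17 is on it with identical runs of only 59 bases with KRT14 and 61 with KRT16, while KRT83, which shares 19.0% of its words with KRT81, KRT8 and KRT18 are not. With KRT17 kept, a choice made after the values were seen, the means were 4051, 5739 and 5752 TPM. In bulk RNA, fewer cells making a keratin and less of its mRNA per cell cannot be told apart.

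Basal keratins summed to 2332 ± 380 TPM in MCF10A, 2621 ± 171 in MCF10AT1 and 2853 ± 27.9 in MCF10Ca1a, and made up 31.8%, 29.5% and 41% of keratin mRNA (SD, n = 3). Luminal keratins summed to 1898 ± 247, 3129 ± 155 and 2831 ± 50.3 TPM, with shares of 25.9%, 35.3% and 40.7%. Their share ran from 25.7% to 26.1% in the MCF10A libraries, from 35% to 35.6% in MCF10AT1 and from 40.5% to 41% in MCF10Ca1a, so the 3 lines did not overlap. Activation keratins summed to 887 ± 164, 1334 ± 82.6 and 700 ± 12.8 TPM, or 12.1%, 15% and 10.1% of keratin mRNA.

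Hair and root sheath keratins, nearly all of them KRT81, were 29.9% of keratin mRNA in MCF10A, 19.9% in MCF10AT1 and 7.26% in MCF10Ca1a. Suprabasal keratins summed to 20.3 ± 1.24, 20.1 ± 1.59 and 33 ± 0.612 TPM and the 3 other keratins to 4.4 ± 0.118, 4.71 ± 0.197 and 37.9 ± 1.17 TPM. The ratio of basal to luminal mRNA was 1.23 ± 0.0394 in MCF10A, 0.837 ± 0.0141 in MCF10AT1 and 1.01 ± 0.0108 in MCF10Ca1a. It was above 1 in all 3 MCF10A libraries and below 1 in all 3 of MCF10AT1, and ran from 0.996 to 1.01 in MCF10Ca1a. These values depend on KRT17 and also on KRT15, which averaged 33.1, 208 and 600 TPM in the 3 lines. No sum was taken without KRT15 alone. Without KRT14 alone the basal sum was 2126 TPM in MCF10A, 2583 in MCF10AT1 and 2849 in MCF10Ca1a, in the same order, and the ratio to luminal mRNA 1.12, 0.825 and 1.01. Without both KRT14 and KRT17 the sum was 1456, 1840 and 1020 TPM, lowest in MCF10Ca1a, and the ratio 0.764, 0.588 and 0.36, below 1 in every line. These sums over chosen genes were given no test.

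The balance of the 2 filament types differed most in MCF10Ca1a. Type I keratins summed to 1387, 1153 and 1052 TPM in MCF10A, 1638, 1617 and 1489 TPM in MCF10AT1 and 3286, 3232 and 3316 TPM in MCF10Ca1a. Type II keratins summed to 7042, 5925 and 5407 TPM, 7620, 7470 and 6799 TPM, and 3687, 3639 and 3724 TPM. Type I mRNA was 16.3% ± 0.0961, 17.8% ± 0.136 and 47.1% ± 0.0437 (SD, n = 3) of keratin mRNA, and the type I to type II ratio was 0.195, 0.217 and 0.89. Type II mRNA thus exceeded type I mRNA in all 9 libraries, by the least in MCF10Ca1a. Without the same 10 genes, an alternative chosen after the values were seen, the ratio was 0.102, 0.186 and 0.53. With KRT17 (1829 TPM in MCF10Ca1a) kept and the other 9 left out it was 0.32, 0.362 and 1.24. It was highest in MCF10Ca1a each time, but whether type II exceeded type I in that line depended on the genes summed.

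The leading keratin was a different gene in each line. In MCF10A the order of mean levels was KRT81 (2146 TPM), KRT7 (1531), KRT5 (1423), KRT6A (864) and KRT17 (670), and the libraries of KRT7 and KRT5 overlapped, as did those of KRT6A and KRT17. In MCF10AT1 it was KRT7 (2127 TPM), KRT81 (1739), KRT5 (1632), KRT6A (1213) and KRT17 (742), with an overlap between KRT81 and KRT5. In MCF10Ca1a it was KRT17 (1829 TPM), KRT7 (1689), KRT18 (693), KRT15 (600) and KRT81 (493), with no overlap between neighbours. The leading keratin ranked 87 among all genes in MCF10A, 87 in MCF10AT1 and 94 in MCF10Ca1a.

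**Figure D2:**
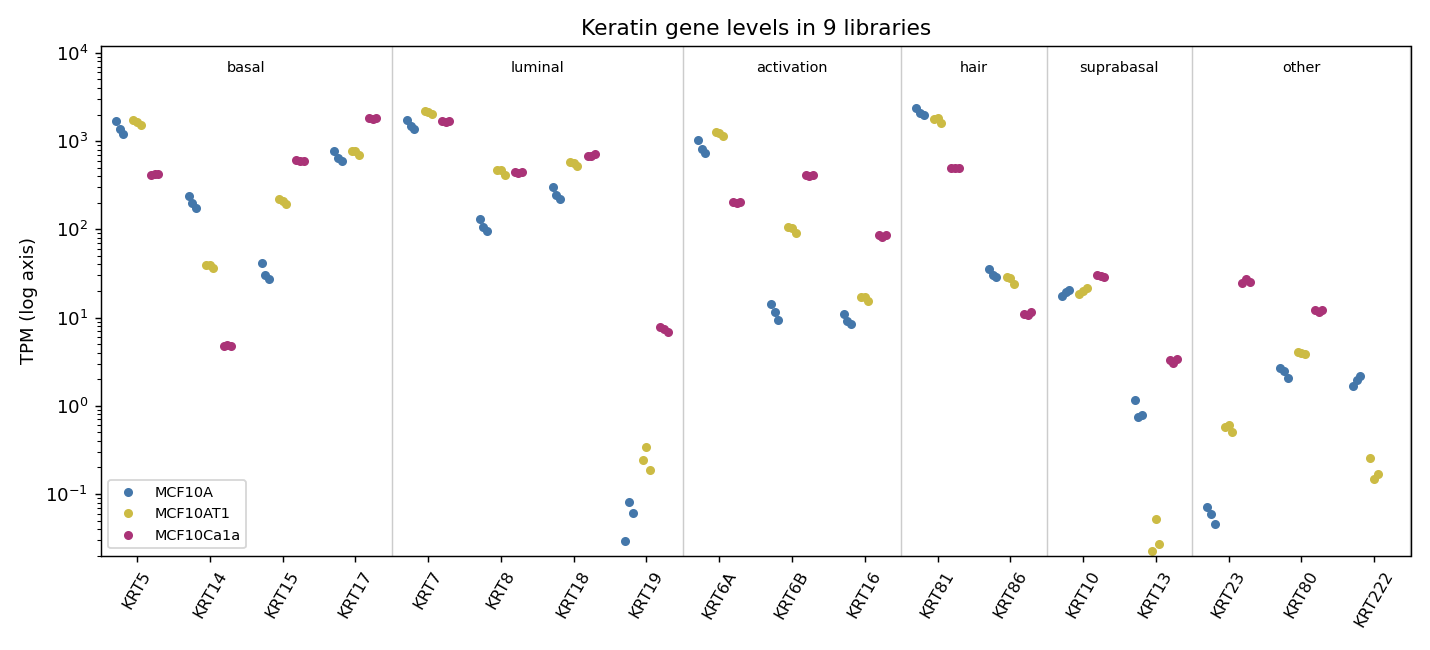
Level of the 18 keratin genes named in the text in each library (TPM, log axis), grouped by class, with 1 point per library and values of 0 left out (KRT222 in MCF10Ca1a). KRT14 steps down and KRT15, KRT6B, KRT19 and KRT23 step up from MCF10A to MCF10AT1 to MCF10Ca1a, and the 3 libraries of a line lie close together except at the lowest levels.

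Of the 55 keratin genes 23 had enough counts to be tested. The other 32 were left out by the filter on low counts: 16 were at 0 in all 9 libraries and the other 16 had at most 7.02 counts in any library. Lines were compared by their counts in edgeR's quasi-likelihood test, p-values were adjusted by Benjamini and Hochberg's method over the 17910 genes that passed the filter, and a gene was called at an adjusted p under 0.05. Gene positions below are those of GENCODE 29 on GRCh38. Log2 fold changes come from these counts after TMM scaling and not from TPM. The 3 comparisons share libraries, so their results are not independent. A keratin that passed the filter through 1 line alone had to differ, so counts over the 23 are a description.

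In MCF10AT1 against MCF10A 14 keratins were higher, where 29.8% of all genes tested were higher, and 5 were lower, where 31.8% were. KRT9, KRT10, KRT83 and KRT86 were not called. The median log2 change of the 23 was 0.60, beside -0.00383 for all genes tested. With a change of at least 2-fold, 7 were higher (9.36% of all genes) and 4 lower (8.64%).

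In MCF10Ca1a against MCF10A 14 were higher, beside 39% of all genes, and 7 lower, beside 41.9%, with KRT7 and KRT75 not called. The median was 1.30, beside -0.0465 for all genes. At 2-fold or more, 12 were higher (21.2% of all genes) and 7 lower (21.7%). In MCF10Ca1a against MCF10AT1 11 were higher, beside 38%, and 10 lower, beside 40.3%, with KRT6C and KRT18 not called. The median was 0.03, beside -0.0441, and at 2-fold or more 9 were higher (18.2%) and 8 lower (19.5%). The share of tested keratins called in either direction was 82.6%, 91.3% and 91.3%, against 61.6%, 80.9% and 78.4% of all genes. The medians were the same with KRT222, which is at 0 in MCF10Ca1a, set to its bound.

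Read over the first step (MCF10AT1 against MCF10A) and the second (MCF10Ca1a against MCF10AT1), 7 of the 23 tested keratins were higher at both, as were 10.8% of all genes tested: KRT6B, KRT15, KRT16, KRT17, KRT19, KRT23 and KRT80. KRT14, KRT81 and KRT222 were lower at both, as were 13% of all genes. KRT5, KRT6A, KRT7, KRT8 and KRT34 were higher and then lower (13.8% of all genes), and KRT13 and KRT75 lower and then higher (12.7%). KRT6C and KRT18 were higher at the first step and not called at the second (5.11%). KRT9 and KRT10 were not called at the first and higher at the second (14.5%), and KRT83 and KRT86 not called and then lower (13.5%). No tested keratin was lower and then not called (6.04% of all genes) or not called at either step (10.5%). Some of these places depended on the fit, among the alternatives described below. The first-step calls of KRT5, KRT17, KRT19 and KRT81 and the second-step calls of KRT8 and KRT10 were each lost under at least 1 alternative. KRT10 at the first step and KRT6C and KRT18 at the second were called under others. Both steps use the MCF10AT1 libraries, so these patterns have no test of their own.

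**Figure D3:**
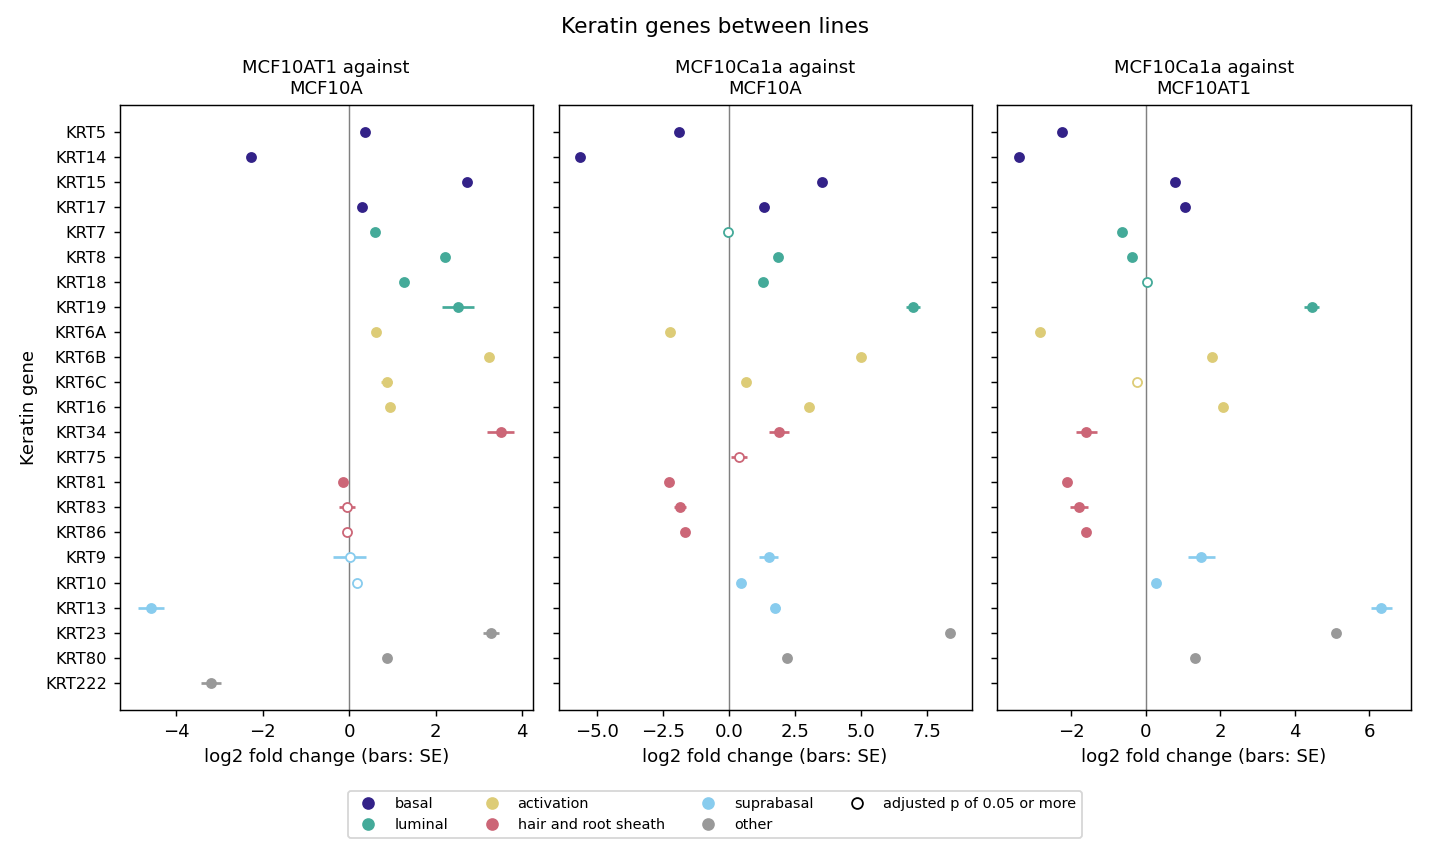
Log2 fold changes of the 23 tested keratin genes in each comparison from edgeR, with bars of 1 SE and open points for genes not called. Points of KRT222 against MCF10Ca1a (0 counts there) and of KRT75 against MCF10AT1 (2 counts in all there) are left out, and axes differ between panels. Basal and activation keratins lie on both sides of 0 in both comparisons with MCF10Ca1a.

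The 4 basal keratins all passed the test in each comparison, where 61.6%, 80.9% and 78.4% of all genes did, but did not move together. Against MCF10A, KRT5, KRT15 and KRT17 were higher and KRT14 lower in MCF10AT1, and KRT15 and KRT17 were higher and KRT5 and KRT14 lower in MCF10Ca1a. Their median log2 change was 0.32 in MCF10AT1 against MCF10A, -0.27 in MCF10Ca1a against MCF10A and -0.73 in MCF10Ca1a against MCF10AT1. KRT14 (ENSG00000186847.6, chr17:41582279-41586921, minus strand), the type I partner of KRT5, stood at 241, 199 and 176 TPM in MCF10A, 39.7, 39.6 and 36.9 TPM in MCF10AT1 and 4.7, 4.94 and 4.7 TPM in MCF10Ca1a. The 3 lines did not overlap, and each step was downward. Its log2 change was -2.26 (SE 0.0701, edgeR adjusted p 8.22e-12) for MCF10AT1 against MCF10A and -3.39 (SE 0.0858, edgeR adjusted p 4.86e-13) in MCF10Ca1a against MCF10AT1, the latter -2.78 in log2(TPM + 1).

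KRT5 (ENSG00000186081.12, chr12:52514575-52520687, minus strand), the main type II keratin of basal cells, stood at 1698, 1363 and 1210 TPM in MCF10A, 1735, 1656 and 1505 TPM in MCF10AT1 and 411, 422 and 426 TPM in MCF10Ca1a. MCF10Ca1a was below all other libraries, while MCF10A replicate 1 lay within the range of MCF10AT1 in TPM. In counts KRT5 was 0.36 higher on the log2 scale in MCF10AT1 than in MCF10A (SE 0.0787, edgeR adjusted p 0.00131). With limma on log2(TPM + 1) that difference was 0.21 and was not called (adjusted p 0.127). It fell in MCF10Ca1a, with log2 changes of -1.89 (SE 0.0814, edgeR adjusted p 4.79e-11) against MCF10A and -2.25 (SE 0.0824, edgeR adjusted p 1.39e-11) against MCF10AT1. KRT14 fell further than KRT5, and the ratio of KRT5 to KRT14 in TPM was 6.93 ± 0.107 in MCF10A, 42.1 ± 1.49 in MCF10AT1 and 87.8 ± 2.57 in MCF10Ca1a (SD, n = 3).

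KRT15 (ENSG00000171346.16, chr17:41513743-41522529, minus strand), a type I keratin of basal cells that has no partner of its own, stood at 41.8, 30.1 and 27.4 TPM in MCF10A, 220, 212 and 193 TPM in MCF10AT1 and 616, 590 and 595 TPM in MCF10Ca1a. No library of one line overlapped another line. KRT15 changed by 2.73 (SE 0.0581, edgeR adjusted p 1.79e-13) on the log2 scale in MCF10AT1 against MCF10A, 3.52 (SE 0.06, edgeR adjusted p 7.40e-15) in MCF10Ca1a against MCF10A and 0.79 (SE 0.0543, edgeR adjusted p 9.25e-09) in MCF10Ca1a against MCF10AT1. The last value depended on the scale: it was 1.52 with limma on log2(TPM + 1), where the change from MCF10A was 4.16. The makeup of KRT15 transcripts differed at the same time. The protein-coding transcript ENST00000254043.8 had 72.7% ± 1.6, 82.2% ± 1.55 and 47.4% ± 0.994 of the estimated counts of KRT15 (SD, n = 3), not adjusted for transcript length. A retained-intron transcript, ENST00000463447.5, had 6.39%, 5.15% and 22.4%, and another, ENST00000474031.5, went the other way with 11.8%, 7.72% and 5.8%. The coding transcript ENST00000393974.7 had 4.21%, 1.48% and 11.9%. These shares were not tested.

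KRT17 (ENSG00000128422.18, chr17:41619441-41624842, minus strand), a basal keratin that is also induced in wounded skin, stood at 769, 646 and 595 TPM in MCF10A, 767, 763 and 696 TPM in MCF10AT1 and 1836, 1805 and 1846 TPM in MCF10Ca1a. MCF10Ca1a was above all other libraries, and MCF10A and MCF10AT1 overlapped in TPM. It was 0.29 (SE 0.0655, edgeR adjusted p 0.00157) higher in MCF10AT1 than in MCF10A in counts, a call lost with limma on log2(TPM + 1), where the difference was 0.15 (adjusted p 0.155). In MCF10Ca1a its log2 change was 1.34 (SE 0.0666, edgeR adjusted p 2.22e-10) against MCF10A and 1.05 (SE 0.0662, edgeR adjusted p 3.66e-09) against MCF10AT1. KRT17 mRNA was 3.28 ± 0.102, 19.1 ± 0.251 and 383 ± 15.1 times KRT14 mRNA in TPM in the 3 lines, and KRT15 mRNA 0.16 ± 0.0117, 5.37 ± 0.156 and 126 ± 5.85 times KRT14 mRNA.

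The luminal keratins were higher in MCF10AT1 than in MCF10A without exception among those tested: 4 of 4, where 29.8% of all genes were higher, with a median log2 change of 1.74. In MCF10Ca1a against MCF10A 3 of 4 were higher, where 39% of all genes were (median 1.58), and in MCF10Ca1a against MCF10AT1 KRT19 was higher, KRT7 and KRT8 lower and KRT18 not called (median -0.16). KRT20, the fifth luminal gene and best known from intestine and bladder, was at 0 in all 9 libraries. KRT8 (ENSG00000170421.13, chr12:52897187-52949954, minus strand) and KRT18 (ENSG00000111057.11, chr12:52948871-52952901, plus strand) form the main filament pair of simple epithelia. KRT8 stood at 130, 105 and 96.5 TPM in MCF10A, 470, 465 and 410 TPM in MCF10AT1 and 441, 432 and 452 TPM in MCF10Ca1a. All MCF10A libraries were below all others, and MCF10AT1 and MCF10Ca1a overlapped. The spans of KRT8 and KRT18 overlap on opposite strands.

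KRT8 rose by 2.21 (SE 0.0748, edgeR adjusted p 1.99e-11) on the log2 scale in MCF10AT1 and by 1.85 (SE 0.074, edgeR adjusted p 2.30e-11) in MCF10Ca1a, each against MCF10A. MCF10Ca1a was lower than MCF10AT1 in counts, -0.36 (SE 0.0716, edgeR adjusted p 0.000387), and with limma on log2(TPM + 1) the difference was -0.02 and not called (adjusted p 0.867). KRT18 stood at 303, 246 and 221 TPM in MCF10A, 574, 563 and 524 TPM in MCF10AT1 and 678, 683 and 718 TPM in MCF10Ca1a. Its lines did not overlap in TPM, with MCF10A lowest and MCF10Ca1a highest, and it had a log2 change in counts of 1.27 (SE 0.0696, edgeR adjusted p 2.58e-09) in MCF10AT1 and 1.30 (SE 0.0697, edgeR adjusted p 5.08e-10) in MCF10Ca1a against MCF10A. Between MCF10Ca1a and MCF10AT1 the difference in counts was 0.03 (SE 0.0685, edgeR adjusted p 0.653), and on the log2(TPM + 1) scale it was 0.32 with a limma adjusted p of 0.0117. The ratio of KRT8 to KRT18 was 0.431 ± 0.00491, 0.81 ± 0.0234 and 0.637 ± 0.0116 (SD, n = 3), so KRT18 mRNA exceeded KRT8 mRNA in every library.

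KRT7 (ENSG00000135480.17, chr12:52232520-52252186, plus strand), a type II keratin of ducts and glands, stood at 1733, 1497 and 1362 TPM in MCF10A, 2200, 2161 and 2018 TPM in MCF10AT1 and 1699, 1662 and 1708 TPM in MCF10Ca1a. It was among the 2 most abundant keratins in every line, and the MCF10A and MCF10Ca1a libraries overlapped. Its log2 change was 0.60 (SE 0.0641, edgeR adjusted p 2.41e-06) for MCF10AT1 against MCF10A and -0.63 (SE 0.0642, edgeR adjusted p 6.22e-07) in MCF10Ca1a against MCF10AT1. Between MCF10Ca1a and MCF10A the value was -0.03 (SE 0.0639, edgeR adjusted p 0.661) and 0.15 with limma on log2(TPM + 1), where the difference between MCF10Ca1a and MCF10AT1 was -0.33.

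KRT19 (ENSG00000171345.13, chr17:41523617-41528308, minus strand), a type I keratin of luminal cells that is widely used to detect carcinoma cells, was the lowest luminal keratin with any counts. It stood at 0.0294, 0.0802 and 0.0603 TPM in MCF10A, 0.24, 0.341 and 0.189 TPM in MCF10AT1 and 7.74, 7.44 and 6.78 TPM in MCF10Ca1a, and each line was above the one before without overlap. Behind these levels were counts of 2, 6 and 3, of 20, 29 and 15, and of 270, 250 and 243. Its log2 change was 2.52 (SE 0.369, edgeR adjusted p 4.60e-05) in MCF10AT1 against MCF10A, 6.98 (SE 0.259, edgeR adjusted p 1.08e-11) in MCF10Ca1a against MCF10A and 4.46 (SE 0.199, edgeR adjusted p 1.00e-10) in MCF10Ca1a against MCF10AT1, from counts of at most 29 in any library of the first 2 lines. With limma on log2(TPM + 1) and no filter on low values, the first difference was 0.25 and not called (adjusted p 0.063), and the others were 2.98 and 2.73. After thinning to the smallest library the first difference was 3.14 (edgeR adjusted p 1.17e-05). Even in MCF10Ca1a, KRT7 mRNA was 232 ± 17.6 times KRT19 mRNA (SD, n = 3).

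The activation keratins KRT6A, KRT6B, KRT6C and KRT16 were all higher in MCF10AT1 than in MCF10A (median log2 change 0.91), where 29.8% of all genes were. In MCF10Ca1a against MCF10A 3 were higher, where 39% of all genes were, and KRT6A lower (median 1.84), and in MCF10Ca1a against MCF10AT1 KRT6B and KRT16 were higher, KRT6A lower and KRT6C not called (median 0.78; 38% of all genes higher and 40.3% lower). KRT6A (ENSG00000205420.11, chr12:52487174-52493257, minus strand), a type II keratin of wounded and activated epidermis, stood at 1042, 818 and 731 TPM in MCF10A, 1270, 1240 and 1130 TPM in MCF10AT1 and 206, 199 and 206 TPM in MCF10Ca1a. MCF10Ca1a was below all other libraries and MCF10A below MCF10AT1.

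KRT6B (ENSG00000185479.6, chr12:52446651-52452126, minus strand), the copy whose differing bases were printed above, stood at 14.1, 11.5 and 9.47 TPM in MCF10A, 106, 103 and 91.4 TPM in MCF10AT1 and 408, 402 and 414 TPM in MCF10Ca1a. The lines did not overlap and went up at each step. KRT6A changed by 0.63 (SE 0.0809, edgeR adjusted p 1.30e-05) for MCF10AT1 against MCF10A and by -2.84 (SE 0.0866, edgeR adjusted p 2.42e-12) in MCF10Ca1a against MCF10AT1 on the log2 scale. KRT6B changed by 3.24 (SE 0.0901, edgeR adjusted p 2.71e-12) and by 1.77 (SE 0.0832, edgeR adjusted p 1.67e-10) in the same comparisons. The ratio of KRT6A to KRT6B was 73.9, 71.2 and 77.2 in the MCF10A libraries, 12, 12.1 and 12.4 in MCF10AT1 and 0.504, 0.495 and 0.498 in MCF10Ca1a. KRT6A was thus the main copy in MCF10A and MCF10AT1, and KRT6B in MCF10Ca1a. KRT6C, the third copy, averaged 2.36 ± 0.526, 3.94 ± 0.593 and 4.05 ± 0.534 TPM (SD, n = 3). As these genes are 97.5% to 98.5% identical, how far reads of one were counted to another was not tested.

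KRT16 (ENSG00000186832.9, chr17:41609778-41615899, minus strand), the type I partner of KRT6 keratins, stood at 10.9, 9.07 and 8.45 TPM in MCF10A, 17.3, 17 and 15.5 TPM in MCF10AT1 and 85.3, 81.4 and 87.1 TPM in MCF10Ca1a. All 3 lines were apart, with MCF10Ca1a highest. KRT16 changed by 0.95 (SE 0.0637, edgeR adjusted p 1.95e-08) on the log2 scale in MCF10AT1 against MCF10A and 2.08 (SE 0.0615, edgeR adjusted p 1.88e-12) in MCF10Ca1a against MCF10AT1. The ratio of KRT6A to KRT16 was 90.7 ± 4.42 in MCF10A, 73 ± 0.301 in MCF10AT1 and 2.41 ± 0.0404 in MCF10Ca1a (SD, n = 3). KRT14, whose sequence is near that of KRT16, moved the other way in both steps.

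**Figure D4:**
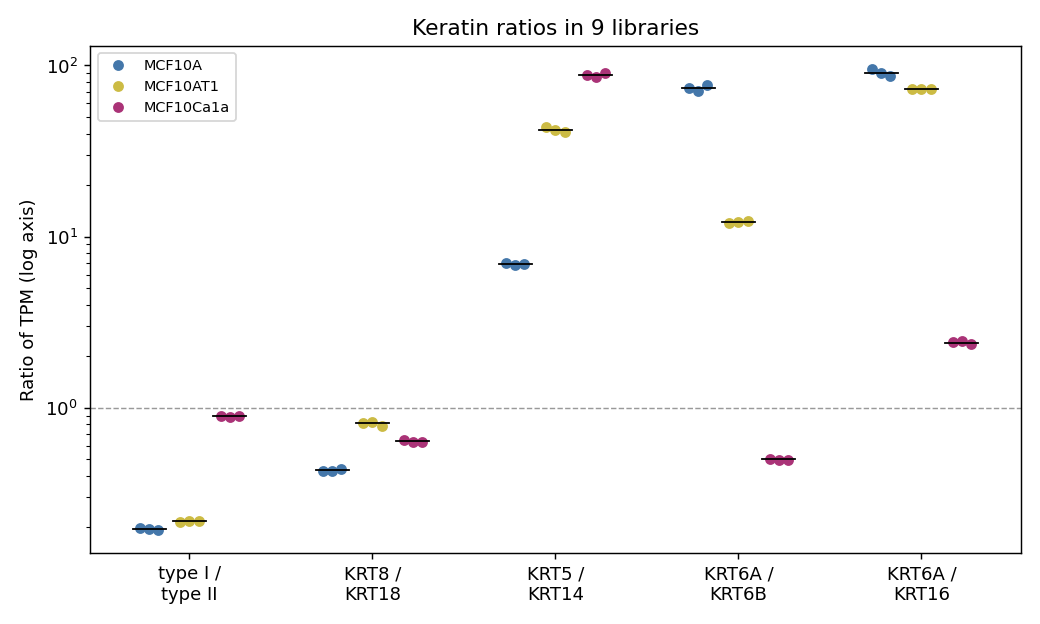
Ratios of keratin levels in each library (TPM over TPM, log axis), with 1 point per library, a bar at the mean of a line and a dashed line at equal levels. The type I to type II ratio is highest in MCF10Ca1a (0.89 over all keratins, as plotted, and 0.53 or 1.24 without 10 or 9 keratins that have a close relative), the KRT5 to KRT14 ratio is lowest in MCF10A and highest in MCF10Ca1a, and the KRT6A to KRT6B ratio crosses 1 between MCF10AT1 and MCF10Ca1a.

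Of the 26 hair and root sheath keratins 5 passed the filter on low counts (KRT34, KRT75, KRT81, KRT83 and KRT86). KRT81 (ENSG00000205426.11, chr12:52285913-52291534, minus strand), a type II keratin of the hair shaft cortex, stood at 2381, 2095 and 1963 TPM in MCF10A, 1799, 1808 and 1611 TPM in MCF10AT1 and 492, 496 and 491 TPM in MCF10Ca1a. It was the most abundant keratin in each MCF10A library, and MCF10Ca1a was below all others. KRT81 fell in MCF10Ca1a, with log2 changes of -2.26 (SE 0.0639, edgeR adjusted p 7.54e-13) against MCF10A and -2.11 (SE 0.0636, edgeR adjusted p 2.23e-12) against MCF10AT1. Against MCF10A, MCF10AT1 was at -0.15 (SE 0.061, edgeR adjusted p 0.0472), which did not hold without MCF10A replicate 2 (-0.16, adjusted p 0.0851), MCF10AT1 replicate 1 (-0.16, 0.0893), MCF10AT1 replicate 3 (-0.10, 0.139) or any 1 of the MCF10Ca1a libraries (-0.15 to -0.14, adjusted p 0.0677 to 0.0804). The call was also lost with a fit of only the lines compared (-0.12, adjusted p 0.194), without the filter on low counts (-0.14, 0.165), after thinning to the smallest library (-0.14, 0.0616) and with the replicate block (-0.15, 0.0546). With limma on log2(TPM + 1) it was -0.30 and was called (adjusted p 0.0065).

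KRT86 (ENSG00000170442.12, chr12:52249300-52309163, plus strand), the near-copy of KRT81, stood at 35.8, 30.1 and 28.7 TPM in MCF10A, 29.2, 28 and 24.2 TPM in MCF10AT1 and 11.1, 10.7 and 11.6 TPM in MCF10Ca1a. MCF10A and MCF10AT1 overlapped and MCF10Ca1a was below both. Its log2 change was -0.06 in MCF10AT1 against MCF10A (SE 0.0653, edgeR adjusted p 0.476), -1.65 (SE 0.0723, edgeR adjusted p 5.74e-11) in MCF10Ca1a against MCF10A and -1.59 (SE 0.0723, edgeR adjusted p 1.17e-10) in MCF10Ca1a against MCF10AT1. The ratio of KRT81 to KRT86 was 68.2 ± 1.52, 64.3 ± 2.4 and 44.5 ± 2.04 (SD, n = 3). KRT81 lies on the minus strand inside the plus-strand span of KRT86, which also holds the pseudogene KRT87P and overlaps the end of KRT7, and whether the counting used strand is not given in the sources used here. The KRT87P counts were 1649, 1498 and 1599 for the MCF10A libraries, 1505, 1471 and 1222 for MCF10AT1 and 235, 227 and 232 for MCF10Ca1a.

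The other hair keratins tested were low: KRT83 averaged 1.56, 1.34 and 0.467 TPM, KRT34 0.0689, 0.748 and 0.296 TPM, and KRT75 0.22, 0.00502 and 0.316 TPM in MCF10A, MCF10AT1 and MCF10Ca1a. KRT83, a near relative of KRT81, was lower in MCF10Ca1a than in either other line. KRT75, a root sheath keratin, had 84 counts over the MCF10A libraries, 2 over those of MCF10AT1 and 58 over MCF10Ca1a. Its level in MCF10A was 41.2 times that in MCF10AT1 (95% exact binomial interval 11.1 to 346, counting error only) and in MCF10Ca1a 53.9 times (14.3 to 456). Both MCF10AT1 counts were in replicate 3. Without that library KRT75 was at 0 in MCF10AT1, and the fitted log2 change from MCF10A went from -5.09 to -7.54 and that of MCF10Ca1a against MCF10AT1 from 5.47 to 7.91, values that depend on the prior count. The median log2 change of the 5 was -0.06 for MCF10AT1 and -1.65 for MCF10Ca1a when set against MCF10A, and -1.60 between MCF10Ca1a and MCF10AT1.

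Of the 13 suprabasal keratins 3 passed the filter on low counts. KRT10 (ENSG00000186395.9, chr17:40818117-40822595, minus strand), the type I keratin of differentiating epidermis, stood at 17.7, 19.4 and 20.7 TPM in MCF10A, 18.3, 20.2 and 21.5 TPM in MCF10AT1 and 30, 29.7 and 28.6 TPM in MCF10Ca1a. MCF10Ca1a was above all other libraries, and MCF10A and MCF10AT1 overlapped. Its log2 change was 0.48 (SE 0.09, edgeR adjusted p 0.000232) in MCF10Ca1a against MCF10A and 0.29 (SE 0.0896, edgeR adjusted p 0.00911) in MCF10Ca1a against MCF10AT1, the latter not called without MCF10AT1 replicate 1 (0.21, adjusted p 0.0657) and 0.54 in log2(TPM + 1). Between MCF10AT1 and MCF10A the change was 0.19 (SE 0.0884, edgeR adjusted p 0.0822), and it was called without MCF10A replicate 3 (0.29, adjusted p 0.00645) or MCF10AT1 replicate 1 (0.26, 0.0323), without the filter on low counts (0.20, 0.00686) and with the replicate block (0.19, 0.0345). It was smaller without MCF10A replicate 1 (0.09, adjusted p 0.296) or MCF10AT1 replicate 3 (0.13, 0.302) and with limma on log2(TPM + 1) (0.05, 0.596). KRT10 overlaps TMEM99 on the opposite strand. KRT1, its type II partner in epidermis, had at most 1 count in any library.

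KRT13 (ENSG00000171401.15, chr17:41500981-41505705, minus strand), a type I keratin of the upper layers of oral and oesophageal lining, stood at 1.16, 0.737 and 0.793 TPM in MCF10A, 0.0225, 0.0523 and 0.0272 TPM in MCF10AT1 and 3.32, 3.04 and 3.42 TPM in MCF10Ca1a. MCF10AT1 was the lowest and MCF10Ca1a the highest line, without overlap. In counts these were 110, 72 and 95, then 2, 6 and 3, then 166, 150 and 179. The log2 change was -4.57 (SE 0.3, edgeR adjusted p 1.56e-08) for MCF10AT1 against MCF10A and 1.76 (SE 0.175, edgeR adjusted p 4.51e-07) in MCF10Ca1a against MCF10A, and 6.33 (SE 0.275, edgeR adjusted p 7.69e-11) in MCF10Ca1a against MCF10AT1. With log2(TPM + 1) as the scale the first and last of these were -0.87 and 2.04, since 1 TPM is above the level in MCF10AT1. KRT4, the type II partner of KRT13, had at most 4 counts in any library. KRT9, a keratin of palm and sole skin, averaged 0.0926, 0.0792 and 0.308 TPM and was higher in MCF10Ca1a than in either other line.

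Among the other keratins, KRT23 (ENSG00000108244.17, chr17:40922696-40937634, minus strand), a type I keratin found in several carcinomas, had the largest rise of any keratin in the count fit of MCF10Ca1a against MCF10A. It stood at 0.0718, 0.0596 and 0.046 TPM in MCF10A, 0.576, 0.607 and 0.499 TPM in MCF10AT1 and 24.6, 27.6 and 25.5 TPM in MCF10Ca1a, with each line above the one before and no overlap. KRT23 rose by 3.27 (SE 0.186, edgeR adjusted p 3.61e-09) on the log2 scale in MCF10AT1 against MCF10A, by 8.37 (SE 0.119, edgeR adjusted p 1.73e-15) in MCF10Ca1a against MCF10A and by 5.10 (SE 0.0854, edgeR adjusted p 2.70e-14) in MCF10Ca1a against MCF10AT1. In log2(TPM + 1) these were 0.56, 4.67 and 4.11, and KRT6B, at 5.03, then rose more than KRT23 in MCF10Ca1a against MCF10A. In MCF10Ca1a the estimated counts of KRT23 were divided between the coding transcripts ENST00000209718.8 (48.6% ± 8.86) and ENST00000436344.7 (26.2% ± 3.27) and the retained-intron transcript ENST00000582754.5 (22.5% ± 5.59, SD, n = 3).

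KRT80 (ENSG00000167767.14, chr12:52168996-52192000, minus strand), a type II keratin found at desmosomes and in the filament network, stood at 2.66, 2.49 and 2.06 TPM in MCF10A, 4.08, 3.95 and 3.85 TPM in MCF10AT1 and 12.2, 11.6 and 12.3 TPM in MCF10Ca1a. It overlaps LINC00592 on the opposite strand. Its lines were apart and went up at each step, by 0.87 (SE 0.0652, edgeR adjusted p 6.06e-08) and then 1.32 (SE 0.0618, edgeR adjusted p 1.69e-10) on the log2 scale, the first being 0.55 in log2(TPM + 1). KRT222 (ENSG00000213424.9, chr17:40654665-40665181, minus strand), a short keratin-like protein, stood at 1.69, 1.95 and 2.16 TPM in MCF10A, 0.253, 0.148 and 0.167 TPM in MCF10AT1 and 0 in all 3 MCF10Ca1a libraries. It fell in MCF10AT1 against MCF10A, -3.19 (SE 0.237, edgeR adjusted p 2.89e-07), or -1.30 in log2(TPM + 1), and was at least 27-fold lower in MCF10Ca1a than in MCF10A and at least 2.92-fold lower than in MCF10AT1, with a floor of 3 counts per library. An overlapping gene model, AC073508.2, holds 58.3% of the words of its transcript.

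**Figure D5:**
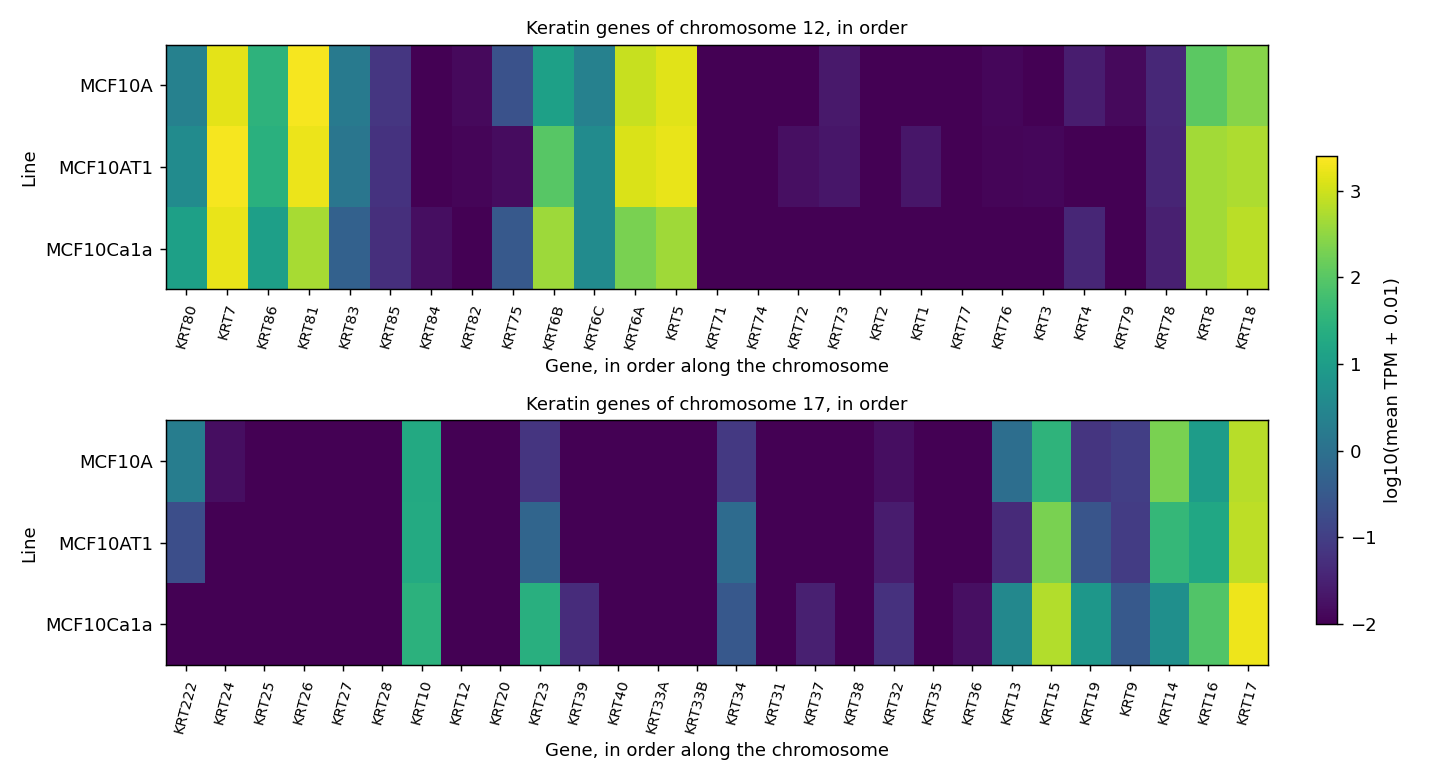
Mean level of all 55 keratin genes in each line, as log10(mean TPM + 0.01) in colour, in their order along chromosome 12 (27 genes) and chromosome 17 (28 genes). Genes that passed the filter on low counts stand at the ends of the chromosome 12 cluster and around KRT5, and at one end of the chromosome 17 cluster, with KRT222, KRT10, KRT23 and KRT34 apart from them.

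Both keratin clusters held tested and untested genes side by side. On chromosome 12, 27 keratin genes span 784 kb (positions 52168996 to 52952901) and 12 were tested, in 3 stretches: KRT80 to KRT83, KRT75 to KRT5, and KRT8 with KRT18 at the far end. Between KRT5 and KRT8 lie 12 genes that all stayed below the filter. On chromosome 17, 28 keratin genes span 970 kb (positions 40654665 to 41624842) and 11 were tested. The last 7 in order, KRT13, KRT15, KRT19, KRT9, KRT14, KRT16 and KRT17, all passed. Some neighbours moved alike in MCF10Ca1a against MCF10AT1: KRT13, KRT15, KRT19 and KRT9 lie in a row and were higher, as were KRT16 and KRT17, and KRT86, KRT81 and KRT83 lie in a row and were lower. Others did not. KRT14 lies between KRT9 and KRT16, both higher in MCF10Ca1a than in MCF10AT1, and was itself lower. KRT6A, lower in MCF10Ca1a than in MCF10AT1, lies 3 genes from KRT75 in a run where KRT75 and KRT6B were higher.

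Genes that anchor or organise keratin filaments moved in both directions. Of the 12 linker genes 11 were tested: 4 were higher and 5 lower in MCF10AT1 against MCF10A, 3 and 7 in MCF10Ca1a against MCF10A, and 3 and 4 in MCF10Ca1a against MCF10AT1. Over all genes tested, 29.8% were higher and 31.8% lower in the first of these comparisons, 39% and 41.9% in the second, and 38% and 40.3% in the last. Their median log2 changes were -0.10, -0.56 and -0.08. PPL (periplakin), which links keratins to the cornified envelope and desmosomes, stood at 3.16, 2.3 and 1.99 TPM in MCF10A, 15.5, 15.5 and 16.5 TPM in MCF10AT1 and 59.8, 57.6 and 56.9 TPM in MCF10Ca1a. Its log2 change in MCF10Ca1a against MCF10A was 4.44 (SE 0.1, edgeR adjusted p 9.15e-14). PLEC (plectin), which ties keratins to hemidesmosomes, rose by 1.72 in the same comparison (SE 0.0959, edgeR adjusted p 7.66e-10). EPPK1 (epiplakin) and TCHP (trichoplein), both keratin-binding proteins, fell, with log2 changes of -2.22 (SE 0.129, edgeR adjusted p 1.27e-09) and -2.05 (SE 0.106, edgeR adjusted p 3.24e-10). EPPK1 was low throughout, at 1.07, 1 and 0.988 TPM in MCF10A and 0.271, 0.209 and 0.219 TPM in MCF10Ca1a.

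Of 13 other intermediate filament genes 6 were tested, and in MCF10Ca1a against MCF10AT1 all 6 were lower, where 40.3% of all genes were. Against MCF10A, 1 was higher and 4 lower in MCF10Ca1a (median -2.12; 39% and 41.9% of all genes), and 2 were higher and 3 lower in MCF10AT1 (median -0.36; 29.8% and 31.8% of all genes). VIM (vimentin), the intermediate filament of mesenchymal cells that cultured epithelial cells also make, stood at 919, 756 and 674 TPM in MCF10A, 363, 363 and 342 TPM in MCF10AT1 and 111, 112 and 113 TPM in MCF10Ca1a. The lines did not overlap, and the log2 change in MCF10Ca1a against MCF10A was -2.92 (SE 0.0712, edgeR adjusted p 1.89e-13). LMNB1, a nuclear lamin, fell by 2.84 in that comparison (SE 0.0891, edgeR adjusted p 2.01e-12). In MCF10Ca1a the mean of KRT17, KRT7, KRT18, KRT15, KRT81, KRT8, KRT5, KRT6B and KRT6A each exceeded every VIM value in that line.

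Genes of the cornified envelope, the protein shell of finally differentiated keratinocytes, moved downward more often than upward against MCF10A and in both directions between MCF10Ca1a and MCF10AT1. Of 18 listed 13 were tested: 0 were higher and 8 lower in MCF10AT1 against MCF10A (median -1.05), 2 higher and 8 lower in MCF10Ca1a against MCF10A (median -1.94), and 5 and 5 in MCF10Ca1a against MCF10AT1 (median 0.31). The shares of all genes were 29.8% higher and 31.8% lower, 39% and 41.9%, and 38% and 40.3%. SPRR2D, an envelope precursor, stood at 8.84, 9.94 and 8.74 TPM in MCF10A, 7.73, 8.44 and 6.83 TPM in MCF10AT1 and 61.9, 58.5 and 59.8 TPM in MCF10Ca1a. Its log2 change in MCF10Ca1a against MCF10A was 2.63 (SE 0.0905, edgeR adjusted p 5.05e-12). IVL (involucrin), a scaffold of the envelope, and TGM1, the enzyme that crosslinks it, fell in that comparison, with log2 changes of -4.48 (SE 0.223, edgeR adjusted p 2.30e-10) and -2.57 (SE 0.087, edgeR adjusted p 4.17e-12). IVL was low throughout, at 2.25, 1.64 and 1.47 TPM in MCF10A and 0.125, 0.0735 and 0.0567 TPM in MCF10Ca1a.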

How the data were processed

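Polyadenylated RNA of 3 lines, 3 libraries each, was sequenced after a strand-marking Illumina mRNA kit, per the labels' protocols. The submitters' processing notes name Salmon and hg38, without a version or role. The annotation release, and whether the counting used strand, are not given in the sources used here. The authors deposited estimated counts and TPM per gene and per transcript. Lines were grouped by the labels, and no library was left out. Estimated counts were rounded and fitted in edgeR 4.0.16 (R 4.3.3): TMM scaling, a filter of at least 10 counts and a total of 15, all 9 libraries, 1 term per line, the quasi-likelihood test and Benjamini-Hochberg adjustment over 17910 genes, called at 0.05. An SE is the log2 change over the square root of F. TPM was used for levels, sums and ratios, and estimated counts for transcript shares.

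Gene positions and coding sequences came from GENCODE 29 (GRCh38) and were aligned with MAFFT 7.526. At least 1 deposited transcript (the main one of KRT8) is not in GENCODE 29. No pair of replicates of a line had identical counts. Chi-square values per degree of freedom between replicates were 10.7 to 68.3 in MCF10A, 3.42 to 15.7 in MCF10AT1 and 2.42 to 4.14 in MCF10Ca1a. The members, classes and lists were chosen with earlier results of these data known. Values in every library are given for keratins with a mean of at least 10 TPM in a line, for the 3 largest called rises and falls of each comparison with a mean of at least 100 counts in whichever line was higher, and for those nearly absent from 1 line. Of each related list, the 2 largest called rises and falls in MCF10Ca1a against MCF10A are named if the higher line averaged 100 counts or more, which left out SYNM and SPRR2A. KRT6C, KRT9, KRT34, KRT75, KRT83, KRT1, KRT4 and KRT20 are given by level or count.

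Alternatives were DESeq2 1.42.0 (its size factors and its Wald test), no filter, the deposited length-scaled and scaled counts, a replicate block, thinning to the smallest library, limma 3.58.1 on log2(TPM + 1) and log2(TPM + 0.1), leaving out each library, and a fit of only the compared lines. On simulated counts for MCF10AT1 against MCF10A (17413 genes, 199 of them changed), edgeR recovered 82 of 99 changes of 2-fold and 98 of 100 of 4-fold, with 9 false calls. Far fewer genes were changed there than the 61.6% called in that comparison of the data, so these rates may not hold for the data.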

Additional observations from a re-analysis of the deposited data

How the results depend on the processing

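The counts of keratins called were within 1.5 times their reported values under every alternative tried: 11 to 15 higher and 4 to 5 lower in MCF10AT1 against MCF10A, 14 to 16 and 7 in MCF10Ca1a against MCF10A, and 10 to 12 and 9 to 11 in MCF10Ca1a against MCF10AT1. Same-numbered libraries did not deviate together (r from -0.0597 to 0.0451), so the numbers do not pair them. With the replicate block the counts were 15 and 4, 14 and 7, and 11 and 11: KRT10 was gained and KRT81 lost in MCF10AT1 against MCF10A, and KRT6C gained in MCF10Ca1a against MCF10AT1. In MCF10Ca1a against MCF10A, limma called KRT75 higher on log2(TPM + 1) (0.11, adjusted p 0.0246) and on log2(TPM + 0.1) (0.38, 0.0411). Without a filter on low TPM it called KRT75 (0.11, adjusted p 0.00738) and KRT32. Of 69 gene results 55 kept direction and side of the threshold under every alternative, and of 1379 alternative values 26 had the opposite sign, 21 lost a call and 12 gained one. The cause was not tested.

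The opposite signs came from 6 results that were not called. KRT9 in MCF10AT1 against MCF10A was -0.08 with length-scaled counts, -0.13 with scaled counts, -0.63 after thinning, -0.02 on log2(TPM + 1) with or without a filter and -0.09 on log2(TPM + 0.1), and -0.29 to 0.28 with 1 library left out. KRT83 there was 0.00 after thinning and -0.22 to 0.16 with 1 library left out, and KRT86 -0.09 to 0.01. KRT7 in MCF10Ca1a against MCF10A was 0.01 with DESeq2 size factors, the Wald test or thinning, 0.00 with only the lines compared, 0.15 on all 3 TPM scales and -0.08 to 0.00 with 1 library left out. In MCF10Ca1a against MCF10AT1, KRT6C was 0.03 on log2(TPM + 1), 0.04 on log2(TPM + 0.1) and 0.03 without a filter on low TPM, and KRT18 -0.05 without a filter on low counts and -0.01 to 0.05 with 1 library left out.

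Without a chosen list of 10 keratins with a close relative, all keratins summed to 3381, 4997 and 3923 TPM in MCF10A, MCF10AT1 and MCF10Ca1a, basal keratins to 1456, 1840 and 1020 TPM, and hair keratins to 1.93, 2.18 and 1.24 TPM. Chosen after the values were seen, the same omission gave type I to type II ratios of 0.102, 0.186 and 0.53 and basal to luminal ratios of 0.764, 0.588 and 0.36. With KRT17 kept, also chosen after the values were seen, all keratins summed to 4051, 5739 and 5752 TPM and basal keratins to 2126, 2583 and 2849 TPM, with type I to type II ratios of 0.32, 0.362 and 1.24 and basal to luminal ratios of 1.12, 0.825 and 1.01. The activation class gives no value, as all its members are then left out. The median over all genes on log2(TPM + 1) differed from that of counts by -0.07, 0.11 and 0.17 in the order of comparisons above, so small changes in TPM are relative to that shift. The MCF10Ca1a libraries were the shallowest, with 32930503 to 35243012 counts, and keratins with counts near 10 or below carry the widest errors.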
